A study of Mus musculus with 8 samples.

Results

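The genes described here are 32 reported messenger RNA targets of the miR-17 seed family, the microRNA family that includes miR-93, measured in mouse liver with and without miR-93. They were taken as a list of gene symbols by a rule that sets no threshold on values of these libraries, and all 32 were found by Ensembl ID among the 56748 gene IDs of the deposited count table. Bulk RNA was sequenced from livers with the label MASLD, a fatty liver disease tied to metabolic dysfunction, at 16 weeks. The 4 libraries of one group carry the genotype label miR-93 knockout, the 4 libraries of the other are wild type, and all 8 share the high fat-high fructose diet and an RNA extraction with TRIzol. The labels give no strain, sex or age, no account of the knockout allele, and no statement that the libraries of a group came from separate animals. P-values therefore measure the spread between these libraries, which may be technical.

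A microRNA guides an Argonaute complex to messenger RNAs by pairing its seed, the bases near its 5′ end, with a matching site that usually lies in the 3′ untranslated region (3′ UTR), and the complex then lowers the stability or translation of that RNA. The miR-17 family is made from several clusters: miR-93 and miR-106b from an intron of Mcm7, miR-17 and miR-20a from the Mir17hg transcript, and miR-106a and miR-20b from a cluster on the X chromosome. Reported targets of the family include receptors and inhibitors of transforming growth factor beta (TGF-β) signalling, brakes on the cell cycle, regulators of apoptosis and regulators of lipid and glucose uptake. The comparison asks whether these RNAs differ in level where miR-93 is missing.

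The mature members of the family named above are shown first, since the sites below pair with the stretch that they share. The capitals mark the seed, bases 2 to 8 from the 5′ end, and the sequences are those of RefSeq.
miR-93-5p: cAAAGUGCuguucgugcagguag
miR-106b-5p: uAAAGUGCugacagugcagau
miR-17-5p: cAAAGUGCuuacagugcagguag
miR-20a-5p: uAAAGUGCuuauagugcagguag
miR-20b-5p: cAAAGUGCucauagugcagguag
miR-106a-5p: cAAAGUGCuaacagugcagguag
The seed AAAGUGC was the same in all 6, and compared position by position the other 5 differed from miR-93-5p at 3 to 5 bases. A further mouse microRNA, miR-6383, has the same seed but differed from miR-93-5p at 11 bases and is not shown. Mir93 had 0 counts in each of the 8 libraries, as did Mir106b, Mir17, Mir20a, Mir106a and Mir20b, so these counts check neither the knockout label nor the level of the mature microRNAs.

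The targets' 3′ UTRs were then searched for the letters that pair with this seed. An 8mer was GCACTTTA, a 7mer-m8 site GCACTTT, a 7mer-A1 site CACTTTA and a 6mer CACTTT, each read on the transcript strand only and each assigned to the longest of these classes. Of the 32 targets, 30 (93.8%) held at least 1 8mer or 7mer in the longest 3′ UTR of GENCODE M21, against 22.0% of the 11579 tested genes with an annotated 3′ UTR. The best site was an 8mer in 17 targets (53.1% against 4.35% of tested genes), a 7mer-m8 in 12 and a 7mer-A1 in Mylip alone. Lims1 and Btg3 held a 6mer only, and Btg3 had an 8mer in another annotated isoform. The targets had longer 3′ UTRs, with a median of 2356.5 bases against 1164, but also more sites per kilobase, 0.492 against 0.171. In 13 targets there were 2 or more sites. Many targets are on the list because such sites were found in them, so these shares describe the list and test nothing.

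The sites shown next belong to the targets on which the results turn, either because the RNA differed between genotypes or because a strong site went with little difference. Mcl1, Rbl2 and Bcl2l11 each hold 1 further 7mer that is not shown. Each line gives 26 bases around 1 site of the GENCODE M21 transcript, 5′ to 3′, with the site in capitals.
Txnip, 8mer: taaggtgatgttcttaGCACTTTAgc
Txnip, 7mer-m8: aagctcactaagccttaGCACTTTgt
E2f3, 8mer: gagacagaagacaccgGCACTTTAaa
Rock2, 7mer-m8: ccacagccaatgttaaaGCACTTTga
Zfyve26, 8mer: tttgcactgaacataaGCACTTTAca
Mylip, 7mer-A1: ctagaagcctacactgtCACTTTAct
Mcl1, 8mer: ctcttcggacttcagaGCACTTTAtg
Tgfbr2, 8mer: acagccaataacgtttGCACTTTAtt
Rbl2, 8mer: acctgtgtaattggtgGCACTTTAtg
Bcl2l11, 8mer: agtctccccgactggaGCACTTTAct
Pkd2, 8mer: attgttataattttctGCACTTTAat
The Txnip sites lie at bases 712 to 719 and 1130 to 1136 of a 3′ UTR of 1354 bases on chromosome 3. The E2f3 site lies at bases 1819 to 1826 of 3328 on chromosome 13, that of Rock2 at 2909 to 2915 of 3182 on chromosome 12, and that of Zfyve26 at 1367 to 1374 of 1620, also on chromosome 12. The Mylip site is at bases 1240 to 1246 of 1512 on chromosome 13. The annotation is of GRCm38 and the counts were made on mm39, so no genome coordinates are given.

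Levels are given as CPM, counts relative to a library size scaled by the trimmed mean of M-values (TMM), and fold changes as log2 of knockout over wild type ± the standard error of the edgeR fit, with Benjamini-Hochberg adjusted p over all 13204 genes tested. Total counts were 9187279 to 10966019 in knockout and 5085860 to 7451026 in wild type. Mitochondrially encoded transcripts made up 8.08% to 15.03% of counts in knockout and 25.4% to 77.8% in wild type. Wild-type replicate 4 stood apart, with 77.8% mitochondrial counts and 14287 genes detected against 18412 to 20148 in the other libraries. In it the 29 targets that passed the filter on low counts had 0 to 168 counts each, with a median of 25, against medians of 103 to 215 in the other libraries, and a target with no counts there may still lie at up to 1.69 CPM (3 counts, counting error only). It was the lowest of the 8 libraries for 15 of the 29 tested targets (51.7%, against 40.8% of tested genes). For 8 targets it was the highest (27.6%, against 31.0%). Results that rest on this library are therefore given with and without it. Every wild-type library, not replicate 4 alone, had fewer total counts and a higher mitochondrial share than every knockout library. Genotype and these library differences cannot be told apart here, with or without replicate 4. The summed level of 8 hepatocyte markers was 41112 to 46427 CPM in knockout and 47294 to 59474 CPM in wild type, with none at 0. The sum is weighted to the most abundant markers. Gene by gene, 5 of the 8 had a positive log2 fold change, with a median of 0.11. At an adjusted p under 0.05, 2 rose and 1 fell (37.5%, beside 21.0% of all tested genes).

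Most reported targets did not differ between genotypes past the threshold. Of the 32, 29 passed the filter on low counts, and Itgb8, Epha4 and Zfpm2 did not. Of those 29, 5 were past an adjusted p of 0.05 (17.2%), where the share over all tested genes was 21.0%. Txnip and Lims1 rose in knockout, 2 of 29 beside 10.4% of all tested genes. E2f3, Rock2 and Zfyve26 fell, 3 of 29 beside 10.7%, although with scaling by library size alone Rock2 and Zfyve26 both read 0.05 and none of the 3 was past the threshold. The median log2 fold change of the 29 was -0.01, the same as the -0.01 of all tested genes. These counts lie near or under the background in both directions, and were near it within ranges of mean level too. In the range of 5 to 20 CPM, 1 of 17 targets rose and 2 fell, where 7.99% and 9.77% of tested genes did, and from 20 to 100 CPM, 1 of 9 rose and 1 fell, where 14.7% and 14.3% did. None of the 3 tested targets with a mean under 5 CPM rose or fell, where the shares were 4.25% and 5.65%.

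**Figure D1:**
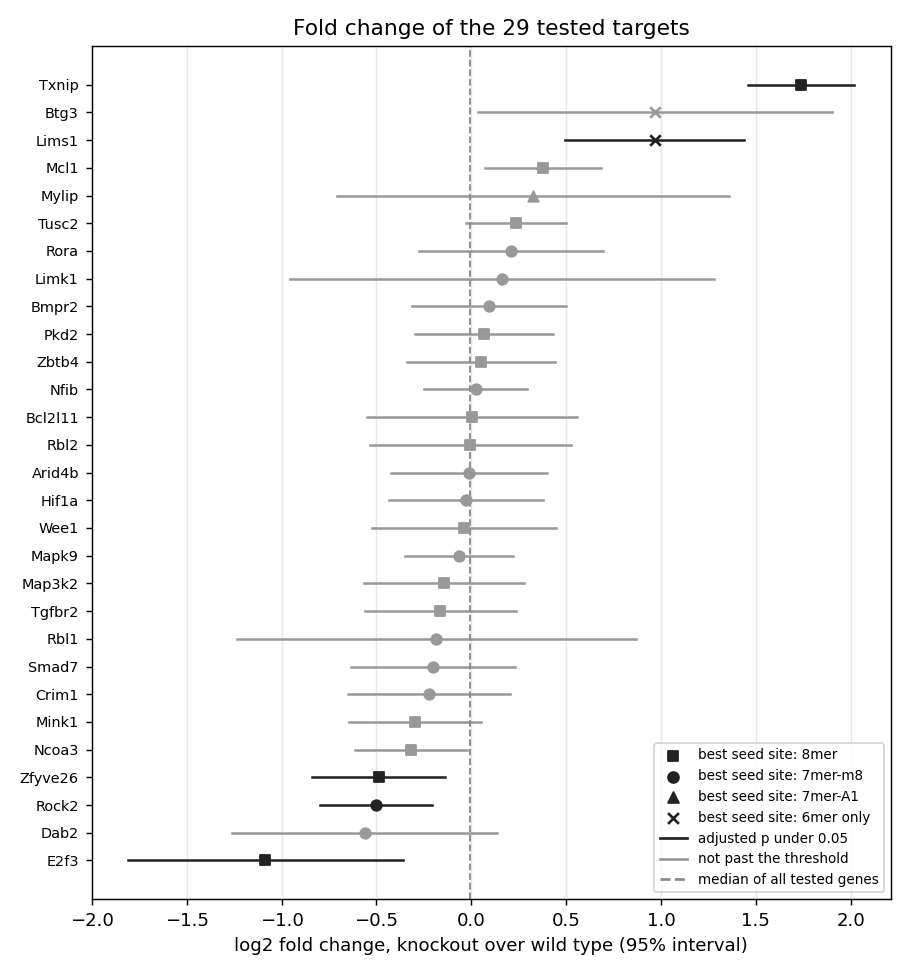
Log2 fold change of the 29 tested targets, knockout over wild type (x axis), with 95% intervals as bars, 1 target per line ordered by value. Marker shapes give the best seed site, black marks an adjusted p under 0.05, and the dashed line is the median of all tested genes; Txnip stands apart at 1.74, E2f3 is the lowest at -1.09, and 8mers (squares) are spread over the whole range. With scaling by library size alone the median of all genes shifts to 0.54 and Rock2 and Zfyve26 read 0.05.

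Leaving out wild-type replicate 4 added calls among the targets and among all genes. Without it 8 of 29 targets were past the threshold, where 35.2% of tested genes were. Txnip, Lims1, Mcl1, Mylip and Btg3 were higher (17.8% of tested genes) and E2f3, Rock2 and Zfyve26 lower (17.5%). The median log2 fold change of the targets was then -0.10, below the -0.003 of all tested genes, with 11 targets positive and 18 negative. With limma-voom and quality weights, which give such a library less weight, 8 of 29 passed beside 37.7%. With library-size scaling only Txnip did, beside 5.19%, and likewise with the replicate number as a block, beside 9.60%.

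Most fitted differences among the targets were also small. The size of the log2 fold change was under 0.5 in 23 of 29 targets (79.3%), against 62.1% of tested genes. In 21 of 29 (72.4%) the upper end of the 95% interval lay below a 1.5-fold higher level in knockout, against 54.6% of tested genes. These shares were not matched for mean level, on which the precision of a fold change depends. Under 5 CPM lay 3 of the 29 targets and 3596 of the 13204 tested genes, and from 100 CPM up 0 targets and 1057 genes. For 13 targets the whole interval lay within 1.5-fold in either direction. The intervals of the other tested targets reached beyond 1.5-fold. The groups did not overlap for 7 targets (24.1%, against 30.3% of tested genes). Knockout was higher for Txnip, Lims1, Mcl1 and Tusc2 (16.3% of tested genes) and wild type for E2f3, Rock2 and Zfyve26 (14.0%).

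Sorted by their best site, the 14 tested targets with an 8mer had a median log2 fold change of -0.02 and the 12 with a 7mer-m8 of -0.05. Mylip, with the 7mer-A1, was at 0.33, and the median of Lims1 and Btg3, with a 6mer only, was 0.97. The 27 targets with an 8mer or 7mer together had a median of -0.03 (-0.11 without wild-type replicate 4), with 1 higher (Txnip) and 3 lower. All tested genes with such a site had a median of 0.02 (0.004 without that library). Over all tested genes the medians were 0.00 for an 8mer, 0.03 for a 7mer-m8, 0.02 for a 7mer-A1, 0.02 for a 6mer and -0.02 for none of these. Of the genes with an 8mer, 8.53% rose and 8.73% fell, and of those with no site 11% and 11%. The order of the medians is not one of site strength, and the quartiles of 3′ UTR length, in which the targets are mostly long, gave medians of -0.03, -0.01, 0.02 and 0.02.

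**Figure D2:**
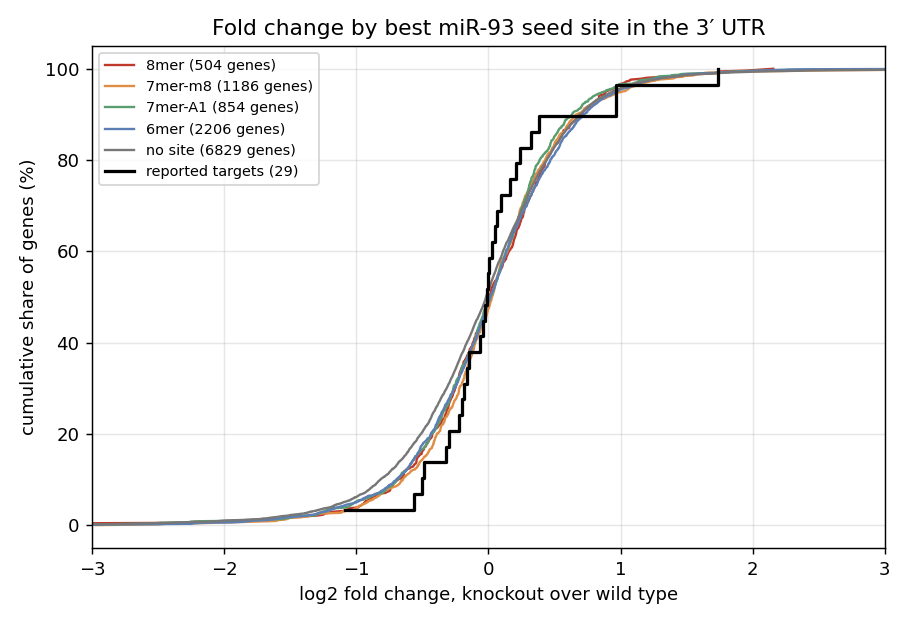
Cumulative share of genes (y axis, %) against log2 fold change, knockout over wild type (x axis), for tested genes split by their best seed site and, in black, for the 29 tested targets. The curves of the site classes lie nearly on each other, with medians of -0.02 to 0.03, and the black curve is steeper in the middle, where 23 of 29 targets fall within 0.5 of 0. The curves are not matched for mean level.

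Per kilobase of exon the targets ran from 0.033 CPM (Itgb8) to 27.3 CPM (Mcl1). Mcl1 was followed by Txnip at 21.7, Tusc2 at 15.6 and Mink1 at 10.4 CPM per kilobase. The next, Mapk9, had 4.48, and the lowest tested targets were Limk1 and Rbl1 at 0.235 and 0.222.

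**Figure D3:**
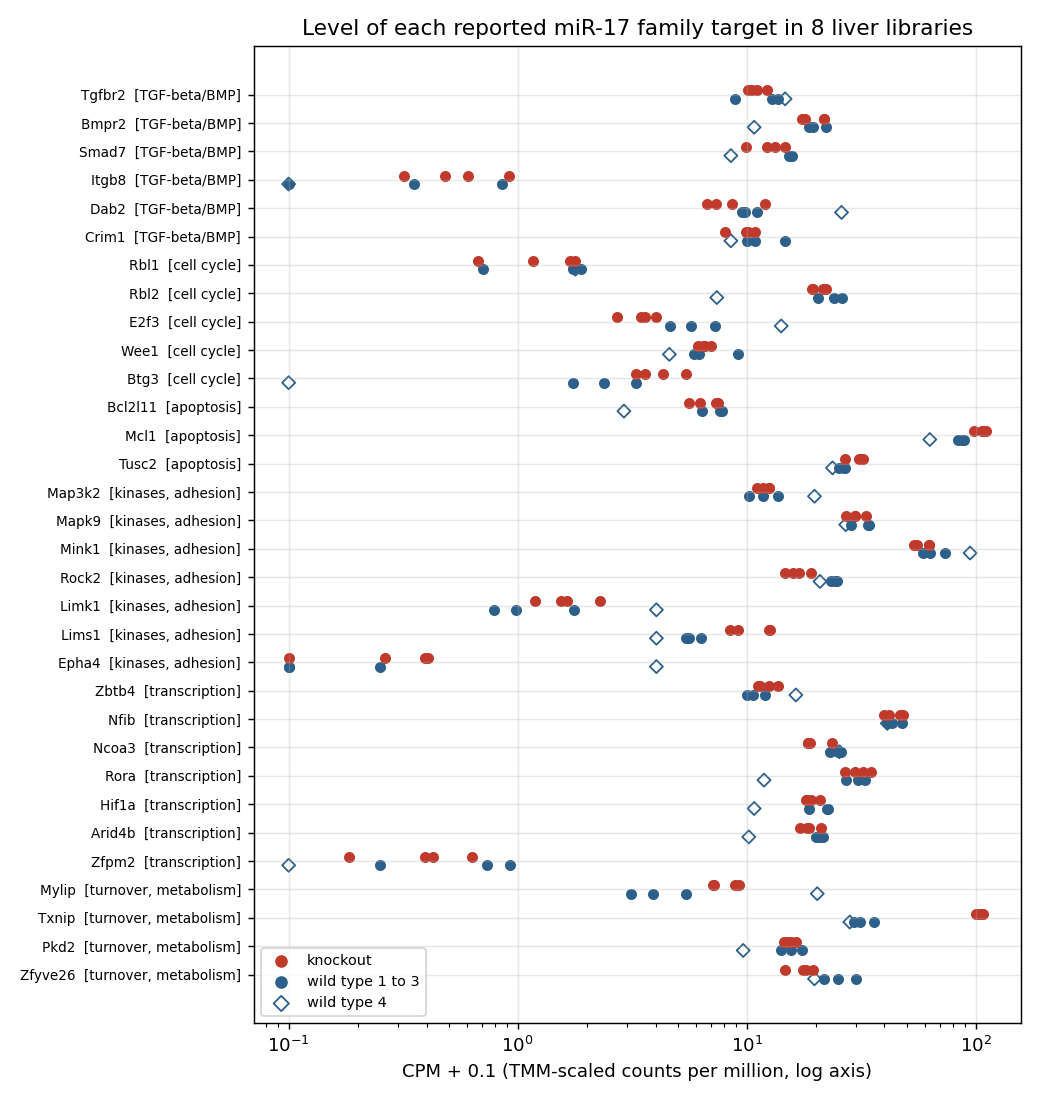
Level of each of the 32 targets in each library, as CPM plus 0.1 on a log axis (x axis), with targets grouped by role. Red circles are the 4 knockout libraries, blue circles wild-type replicates 1 to 3 and open diamonds wild-type replicate 4; the Txnip groups are far apart at 100 to 107 and 28.1 to 35.7 CPM, while most groups overlap and the open diamond is often the extreme point.

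Txnip and Mylip are the targets that act on the uptake of nutrients. Txnip encodes thioredoxin-interacting protein, an arrestin-like protein that restrains glucose uptake and binds thioredoxin. Txnip (ENSMUSG00000038393) measured 104, 107, 107 and 100 CPM in knockout replicates 1 to 4 and 31.3, 35.7, 29.3 and 28.1 CPM in wild type. Every knockout library held about the same high level, and wild-type replicate 4 lay beside the other wild-type libraries. Txnip rose 3.34-fold (log2 1.74 ± 0.13, adjusted p = 6.36e-06), from 31.1 ± 3.35 to 105 ± 3.29 CPM (SD, n = 4 per group). It was past the threshold under all 17 alternatives that were run, at 1.71 to 2.29. Its 3′ UTR is 1 of the 13 with 2 or more sites. No other tested target of these 13 was past the threshold in the edgeR fit of all libraries. Rbl2 and Bcl2l11, which also hold an 8mer and a 7mer-m8, had log2 fold changes of -0.00 and 0.01.

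Mylip, also called Idol, is an E3 ubiquitin ligase that marks the LDL receptor for degradation. Mylip measured 9.20, 8.84, 7.09 and 7.0 CPM in knockout and 3.03, 5.36, 3.79 and 20.2 CPM in wild type. Wild-type replicates 1 to 3 lay below every knockout library and replicate 4 above all of them. Over all libraries the log2 fold change was 0.33 ± 0.47 (adjusted p = 0.662), and without wild-type replicate 4 it was 0.99 (adjusted p = 0.00139). With limma-voom and quality weights, on all 8 libraries, it was 0.95 (adjusted p = 0.00325). Mylip was past the threshold under no other alternative, and the edgeR fit called it only with wild-type replicate 4 left out.

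The other targets of protein and membrane traffic are Zfyve26, an endosomal protein (spastizin) of autophagy and lysosome recycling, and Pkd2, the polycystin-2 channel. Zfyve26 (ENSMUSG00000066440) measured 18.2, 14.6, 17.5 and 19.4 CPM in knockout and 21.7, 25, 29.9 and 19.7 CPM in wild type. The groups did not overlap, but the lowest wild-type and the highest knockout library were nearly level. Zfyve26 fell by 0.49 ± 0.16 on the log2 scale (adjusted p = 0.0499), at the edge of the threshold. It stayed past it in 4 of 17 alternatives, and leaving out any library but wild-type replicate 4 ended the call (adjusted p = 0.0549 to 0.161). Pkd2, whose 8mer is shown above, had 14.5 to 16.4 CPM in knockout and 9.56 to 17.3 CPM in wild type, with a log2 fold change of 0.07 ± 0.17.

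Among the targets of adhesion and the cytoskeleton, Lims1 rose and Rock2 fell. Lims1 encodes PINCH1, a LIM-domain adaptor that joins integrin-linked kinase to the actin cytoskeleton at focal adhesions. Lims1 (ENSMUSG00000019920) measured 8.39, 9.09, 12.6 and 12.5 CPM in knockout and 6.19, 5.50, 5.31 and 3.94 CPM in wild type. All knockout libraries were higher, with a wider spread than wild type. Its log2 fold change was 0.97 ± 0.22 (1.95-fold, adjusted p = 0.00968), on means of 10.6 ± 2.20 and 5.23 ± 0.944 CPM (SD, n = 4 per group). With scaling by library size alone Lims1 read 1.5 and missed the threshold (adjusted p = 0.0532). It is 1 of the 2 targets without an 8mer or 7mer in the longest 3′ UTR.

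Rock2, a kinase that drives actomyosin contraction, went the other way. Rock2 (ENSMUSG00000020580) measured 19.0, 15.8, 14.7 and 16.8 CPM in knockout and 24.3, 24.7, 23.2 and 20.8 CPM in wild type. No wild-type library, replicate 4 included, reached down to the knockout levels. It fell by 0.50 ± 0.13 on the log2 scale (1.42-fold lower, adjusted p = 0.0222), though under library-size scaling it read 0.05, below the median of all genes there. Leaving out any 1 library other than knockout replicate 1 or wild-type replicate 4 ended the call (adjusted p = 0.0523 to 0.0839). Limk1, the kinase that phosphorylates cofilin downstream of ROCK, was measured at 1.09 to 2.19 CPM in knockout and 0.687 to 3.94 CPM in wild type (0.16 ± 0.51). Epha4, an ephrin receptor, was too low to test, with 0 to 7 counts per library.

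**Figure D4:**
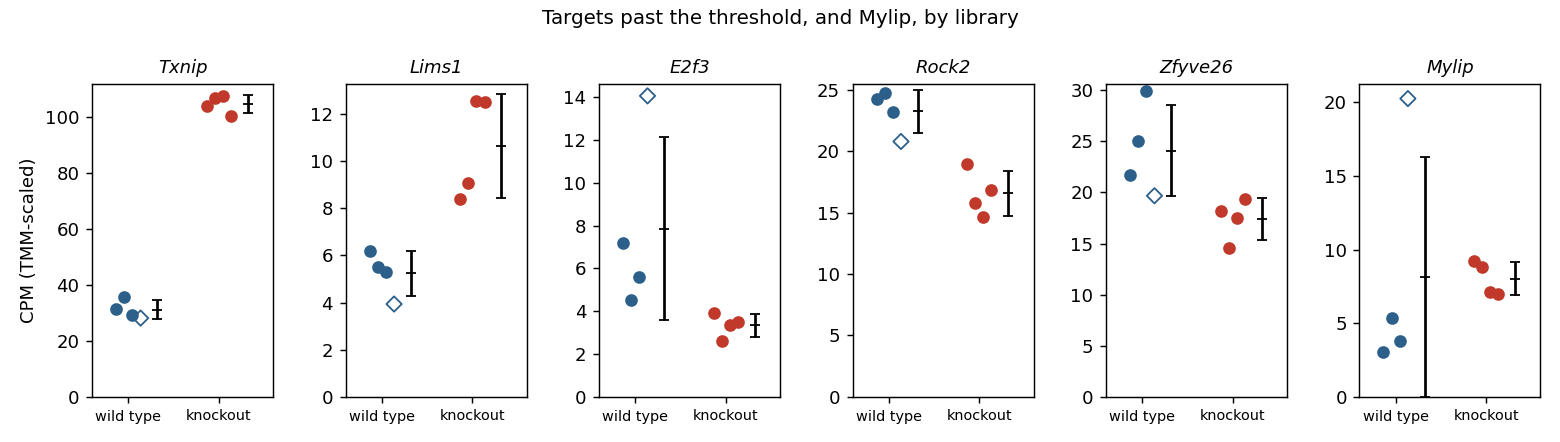
CPM (y axis, from 0, a separate scale in each panel) of the 5 targets past the threshold and of Mylip in each wild-type (blue) and knockout (red) library, with the mean and SD as black bars beside the points. Open diamonds are wild-type replicate 4: it sits with the other wild-type libraries for Txnip, Lims1 and Rock2 and far above them for E2f3 (14.1 CPM) and Mylip (20.2 CPM). The lower levels of Rock2 and Zfyve26 in knockout are not kept with scaling by library size alone.

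Of the cell cycle targets, E2f3 fell and the retinoblastoma relatives did not pass the threshold. E2f3 is an E2F transcription factor that switches on genes of DNA replication. E2f3 (ENSMUSG00000016477) measured 3.91, 2.61, 3.36 and 3.50 CPM in knockout and 7.20, 4.54, 5.61 and 14.1 CPM in wild type, on 31 to 48 and 25 to 57 counts. Wild type was higher throughout, and replicate 4 was the highest of all on the fewest counts. E2f3 fell by 1.09 ± 0.33 on the log2 scale (2.12-fold lower, adjusted p = 0.0381). Without wild-type replicate 4 the difference was -0.78 (adjusted p = 0.0168). The call was lost without wild-type replicate 1 (adjusted p = 0.0739) or any 1 knockout library (0.0643 to 0.115), and with library-size scaling it read -0.43 (0.39).

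Rbl2, the pocket protein p130 that holds E2F targets silent in resting cells, measured 21.5, 22.1, 19.4 and 19.3 CPM in knockout and 23.9, 26, 20.5 and 7.31 CPM in wild type. Wild-type replicate 3 lay within the knockout range and replicate 4 far below it, and the log2 fold change was -0.00 ± 0.24 (95% interval -0.54 to 0.53). Rbl1 (p107) was at 0.570 to 1.68 CPM in knockout and 0.607 to 1.79 CPM in wild type, with a wide 95% interval of -1.23 to 0.87. Wee1, the kinase that holds CDK1 inactive, had 6.06 to 6.87 CPM against 4.50 to 9.07 CPM (-0.04 ± 0.22). Btg3, an antiproliferative BTG/TOB protein, measured 3.18, 4.21, 5.33 and 3.50 CPM in knockout and 2.27, 1.65, 3.19 and 0 CPM in wild type. Wild-type replicate 3 just overlapped the lowest knockout library, and the log2 fold change of 0.97 ± 0.43 did not pass (adjusted p = 0.127), whereas without wild-type replicate 4, the library at 0, it was 0.79 (adjusted p = 0.0457).

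None of the 3 apoptosis targets passed in the edgeR fit of all libraries. Mcl1, an anti-apoptotic BCL2 protein on which hepatocytes depend, measured 108, 107, 98.4 and 111 CPM in knockout and 87.2, 89.1, 83.9 and 63.0 CPM in wild type. All knockout libraries were higher, by 0.38 ± 0.14 on the log2 scale (adjusted p = 0.0752). The difference was smaller but past the threshold without wild-type replicate 4 (0.30, adjusted p = 0.0156). With all libraries Mcl1 was past it with DESeq2 (0.40, adjusted p = 0.0104) and with limma-voom and quality weights (0.31, adjusted p = 0.0149). It missed the threshold under every other alternative. Bcl2l11, the pro-apoptotic BH3-only protein BIM and among the best known targets of the family, had 5.48 to 7.41 CPM in knockout and 2.81 to 7.70 CPM in wild type, a log2 fold change of 0.01 ± 0.25. Tusc2, a small mitochondrial tumour suppressor, had 26.9 to 32.1 CPM against 23.6 to 26.8 CPM (0.24 ± 0.12, adjusted p = 0.182), with groups that did not overlap.

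The TGF-β and bone morphogenetic protein (BMP) targets gave no call. Tgfbr2, the type II TGF-β receptor, measured 10.4, 12.2, 10.01 and 11 CPM in knockout and 12.8, 13.6, 8.80 and 14.6 CPM in wild type. Wild type held both the highest and the lowest library, and the log2 fold change was -0.16 ± 0.18 (interval -0.56 to 0.24). Bmpr2, the type II BMP receptor, had 17.4 to 21.7 CPM against 10.7 to 22.1 CPM (0.09 ± 0.19). Smad7, the inhibitory SMAD that blocks type I receptors, measured 14.7, 12.1, 13.2 and 9.82 CPM in knockout and 15.3, 15.5, 15.6 and 8.43 CPM in wild type. Wild-type replicates 1 to 3 were level and above the knockout libraries, and replicate 4 was below them (-0.20 ± 0.20, adjusted p = 0.50). Crim1, a transmembrane protein that binds BMPs, had 7.96 to 10.7 CPM against 8.43 to 14.7 CPM (-0.22 ± 0.19). Itgb8, the integrin subunit that releases active TGF-β, had 0 to 10 counts per library and was not tested.

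Dab2, an endocytic adaptor that also binds SMADs, measured 12, 6.65, 8.55 and 7.23 CPM in knockout and 9.47, 11, 9.71 and 25.9 CPM in wild type. Replicate 4 of wild type stood far above the rest, and the log2 fold change of -0.56 ± 0.32 (adjusted p = 0.233) was -0.22 without it. In liver Dab2 is known from sinusoidal endothelium and macrophages. The summed level of 12 Kupffer cell and macrophage markers was 190 to 229 CPM in knockout, 68.9 to 92.6 CPM in wild-type replicates 1 to 3 and 238 CPM in replicate 4, and that of 12 sinusoidal endothelial markers was 225 to 399 CPM, 159 to 190 CPM and 313 CPM. Their part in the Dab2 values was not tested. In whole-liver RNA, fewer cells of a type and less RNA per cell cannot be told apart.

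The kinases of the JNK branch moved little. Mapk9 is JNK2 itself, a stress kinase of the steatotic liver, and had 27.2 to 33.1 CPM in knockout and 27.0 to 34.2 CPM in wild type (-0.06 ± 0.13, interval -0.35 to 0.22). Map3k2, an upstream kinase of the cascade, had 11 to 12.4 CPM against 10.2 to 19.7 CPM (-0.14 ± 0.19). Mink1, a germinal-centre kinase that activates JNK, had 53.9 to 62.3 CPM against 59.0 to 94.5 CPM (-0.30 ± 0.16, adjusted p = 0.208). For Map3k2 and Mink1 the highest value was wild-type replicate 4.

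No transcriptional regulator on the list passed in the edgeR fit of all libraries. Ncoa3, a nuclear receptor coactivator, measured 23.6, 18.3, 18.8 and 18.4 CPM in knockout and 25.6, 23.0, 25 and 25.3 CPM in wild type. Knockout replicate 1 lay within the wild-type range and the other 3 below it (-0.32 ± 0.13, adjusted p = 0.114). Of the alternatives, only limma-voom with quality weights put Ncoa3 past the threshold (-0.37, adjusted p = 0.0197). Rora, a nuclear receptor of lipid metabolism and the circadian clock, had 26.8 to 34.8 CPM against 11.8 to 32.6 CPM (0.21 ± 0.22). Hif1a, the oxygen-regulated transcription factor, had 18.1 to 20.8 CPM against 10.7 to 22.6 CPM (-0.03 ± 0.19). Nfib, a nuclear factor I protein, had 39.5 to 48.1 CPM against 40.8 to 47.6 CPM and the narrowest interval of these regulators (0.02 ± 0.12, -0.25 to 0.30). Zbtb4, a repressor that binds methylated DNA, was at 0.05 ± 0.18, and Arid4b, a subunit of a SIN3 histone deacetylase complex, at -0.01 ± 0.19. Zfpm2, a GATA cofactor, had 0 to 7 counts per library and was not tested.

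Other genes of the same pathways were counted in the same fit. In the TGF-β and BMP pathway 32 of 35 listed genes were tested, 4 rose and 1 fell (15.6%, beside 21.0% of all tested genes). Smad3, a SMAD that carries the TGF-β signal, fell by 0.81 ± 0.17, while the ligand Bmp2 (1.23 ± 0.31) and Smad9 of the BMP branch (0.66 ± 0.18) rose. With library-size scaling Bmp2 alone of these 3 was past the threshold, and Smad3 read -0.23 (adjusted p = 0.655). Without wild-type replicate 4 the counts were 10 and 5 (46.9%, beside 35.2%). Of 24 tested genes of the RB and E2F pathway 1 rose and 2 fell (12.5%), and without that library 1 of 26 rose and 10 fell (42.3%). E2f2, an activating E2F like E2f3, fell by 2.97 ± 0.46, from 4.13 ± 1.90 to 0.477 ± 0.215 CPM (SD, n = 4 per group), Tfdp1, the E2F partner, fell by 0.49 ± 0.14, and E2f8, a repressor E2F, rose by 1.11 ± 0.34. With library-size scaling Tfdp1 read 0.06. Lymphocyte markers were also lower in knockout: of 8 B cell markers 6 fell, with a median log2 fold change of -2.64 and summed levels of 20.6 to 142 CPM in knockout and 87.7 to 879 CPM in wild type, and of 5 tested T and NK cell markers 3 fell, with a median of -1.29 and summed levels of 5.41 to 7.92 and 10.2 to 18.9 CPM. Of all tested genes 10.7% fell. With library-size scaling 3 of the 8 B cell markers fell, with a median of -2.13, beside 0.939% of all tested genes. Of the 5 T and NK cell markers 0 were then past the threshold, with a median of -0.79. The part of these lymphocyte markers in the lower E2f3, E2f2 and Mir17hg levels was not tested.

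In the BCL2 family 11 genes were tested. Of these 2 rose and 3 fell (45.5%, beside 21.0% of all tested genes, and 54.5% beside 35.2% without wild-type replicate 4). The pro-apoptotic Bik (1.88 ± 0.32) and Bad (0.64 ± 0.18) rose and Bax, an effector that opens the mitochondrial outer membrane, fell by 0.57 ± 0.16, though with library-size scaling Bax read 0.02 and Bad missed the threshold (adjusted p = 0.0958). Among 16 tested JNK pathway genes 1 rose and 2 fell (18.8%, beside 21.0%). Among them the phosphatase Dusp1 fell by 1.5 ± 0.15 and read -0.96 with library-size scaling (adjusted p = 0.157).

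The sources of the remaining family members and the effector machinery were examined alongside. Mir17hg, the host transcript of miR-17 and miR-20a, measured 4.56, 4.63, 3.87 and 5.18 CPM in knockout and 8.97, 6.87, 6.67 and 10.1 CPM in wild type. Every wild-type library was higher, and Mir17hg fell by 0.80 ± 0.21 on the log2 scale (adjusted p = 0.0227, and 0.01 without wild-type replicate 4), while with library-size scaling it read -0.21 and did not pass (0.682). Mcm7, whose intron holds miR-93, was at -0.27 ± 0.14 (adjusted p = 0.188). Of 18 genes of microRNA processing and silencing 1 rose and 4 fell (27.8%, beside 21.0% of all tested genes), and without wild-type replicate 4 1 rose and 7 fell (44.4%, beside 35.2%). The GW182 protein gene Tnrc6a fell by 0.98 ± 0.25, Ago1 by 0.55 ± 0.15 and the deadenylase subunit gene Pan3 by 0.56 ± 0.16. With library-size scaling none of the 18 was past the threshold and Ago1 read 0.06.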

How the data were processed

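The deposited file holds raw counts per Ensembl gene ID for 8 liver libraries, with no normalization. Per the submitters' processing notes, reads were trimmed with cutadapt 4.2 and aligned with STAR 2.7.10a to mm39. The counting program, strand setting and treatment of reads that match several genes are not given in the sources used here, so counts of overlapping genes and near-identical copies are uncertain. GENCODE M21 (GRCm38) named 52073 of 56748 IDs and gave the 3′ UTRs, and RefSeq gave the microRNAs.

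Genes were kept with filterByExpr on the genotype groups (13204 of 25937 detected), scaled by TMM and tested in R 4.3.3 with edgeR 4.0.16 (robust quasi-likelihood fit, two-sided, Benjamini-Hochberg adjustment over all tested genes, threshold 0.05), without covariates. The steps were tested on simulated data. Apart from planted changes, each gene had the same mean level and dispersion in all simulated libraries. None of them therefore departs from its group as wild-type replicate 4 does, and such a library was not tested. Precision follows the depth: 3 counts are 0.219 to 0.455 CPM, and 1.69 CPM in wild-type replicate 4. Members are described by counts and medians, with no set test, and levels were compared within ranges of mean CPM over all tested genes.

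The members and gene lists were chosen with earlier results of these data known. All members were named, and of each pathway list up to 3 genes past the threshold with the smallest p, plus Sirt1, Mcm7 and Mir93. The genes of 1 pathway list are not reported here. Alternatives were other scalings and filters, DESeq2 1.42.0, limma 3.58.1 (voom with quality weights), a replicate block, removal of mitochondrially encoded genes, other site definitions and each library left out in turn. Figures used matplotlib 3.10.9.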

Additional observations from a re-analysis of the deposited data

Results flagged for a closer look

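In a Dixon test of the highest and lowest library of each group of 4, at the 95% level, 8 of 70 groups of values held a library far from the other 3, and 6 of these were wild-type replicate 4. Chance alone flags about 1 group in 20. In wild-type replicate 4, Smad7 was at 8.43 CPM (15.3 to 15.6 in the other wild-type libraries), Arid4b at 10.1 CPM (20.1 to 21.4), Dab2 at 25.9 CPM (9.47 to 11), Mylip at 20.2 CPM (3.03 to 5.36) and Epha4 at 3.94 CPM (0 to 0.152). Genes detected numbered 14287 there, against 18412 to 19131. Outside that library, Ncoa3 was at 23.6 CPM in knockout replicate 1 (18.3 to 18.8 in the other knockout libraries). Rbl1 was at 0.607 CPM in wild-type replicate 3 (1.64 to 1.79), a level near that of a few counts.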

How the results depend on the processing

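Txnip kept its direction and its side of the threshold under all 17 alternatives and Lims1 under 15; E2f3 did so under 10, Rock2 under 8 and Zfyve26 under 4. The number of tested targets past the threshold was 5 of 29 (17.2%, beside 21.0% of all tested genes). It was 1 with library-size scaling (beside 5.19%), 8 with limma-voom (beside 37.7%) and 3 of 32 with no filter on low counts (beside 9.8%). With each library left out in turn it was 2 to 8, beside 11.3% to 35.2%, most without wild-type replicate 4. Over all tested genes, 2777 past the threshold became 685 with library-size scaling, 4984 with limma-voom and 1489 to 4853 with a library left out. With the replicate number as a block, 1267 genes and 1 target (Txnip) were called. The replicate numbers did not pair libraries: deviations of same-numbered libraries correlated at -0.19, -0.03, -0.07 and -0.09, and no knockout library correlated best with its own number. The causes of these differences were not tested.

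Genes past the threshold in the pathway, microRNA machinery and host gene lists together went from 24 to 7 with library-size scaling (54 without wild-type replicate 4). Over all tested genes the share went from 21.0% to 5.19% (35.2% without that library). Library-size scaling moved the median of all genes to 0.54, that of the targets to 0.49 and that of the targets with an 8mer or 7mer to 0.48. Under it the sign turned for 15 targets, to values below the all-gene median: Tgfbr2 0.43, Smad7 0.31, Dab2 0.13, Crim1 0.31, Rbl1 0.36, Rbl2 0.48, Wee1 0.50, Map3k2 0.47, Mapk9 0.48, Mink1 0.35, Rock2 0.046, Ncoa3 0.25, Hif1a 0.48, Arid4b 0.49 and Zfyve26 0.046. Other turns of sign were in targets near 0: limma-voom gave Bmpr2 -0.024, Rbl1 0.12, Bcl2l11 -0.14 and Pkd2 -0.010, DESeq2 gave Rbl2 0.064, Hif1a 0.0036 and Arid4b 0.020, no filter gave Rbl2 0.047, Wee1 0.014, Hif1a 0.025 and Arid4b 0.041, and the replicate block gave Rbl2 0.12, Wee1 0.016, Hif1a 0.027 and Arid4b 0.050. Rbl2 read 0.0010 with a mean of at least 1 CPM, 0.0099 with DESeq2 size factors and 0.0036 with upper-quartile scaling, Arid4b 0.0013 with DESeq2 size factors and Bcl2l11 -0.00097 without mitochondrially encoded genes. With a library left out, values turned sign within -0.019 to 0.21 for Bmpr2, -0.47 to 0.056 for Rbl1, -0.18 to 0.15 for Rbl2, -0.11 to 0.19 for Wee1, -0.12 to 0.11 for Bcl2l11, -0.27 to 0.011 for Map3k2, -0.14 to 0.57 for Limk1, -0.025 to 0.17 for Zbtb4, -0.014 to 0.081 for Nfib, -0.15 to 0.070 for Hif1a, -0.13 to 0.066 for Arid4b and -0.019 to 0.18 for Pkd2. Depth limits Rbl1, Limk1, Btg3 and the 3 untested targets most, and wild-type replicate 4 throughout.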

Other observations

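A further 25 genes are reported elsewhere as targets of the family, outside the 32. Of 23 tested, 5 rose and 3 fell (34.8%, beside 21.0% of all tested genes). Without wild-type replicate 4 the counts were the same (34.8%) beside 35.2%. The 23 had a median log2 fold change of 0.12, beside -0.01 over all tested genes, and 20 of the 25 held an 8mer or 7mer in the longest 3′ UTR. This list was written with earlier results of these data known, so its direction is not independent evidence. Fbxo31, a subunit of a ubiquitin ligase, rose by 1.75 ± 0.12, from 45.2 ± 1.49 to 152 ± 3.29 CPM (SD, n = 4 per group). Stat3, the transcription factor of the interleukin-6 response, rose by 1.09 ± 0.12. Slc2a4, the insulin-regulated glucose transporter GLUT4, fell by 3.65 ± 0.39, from 9.77 ± 3.66 to 0.723 ± 0.319 CPM, although its 3′ UTR holds an 8mer. Cdkn1a, the cell cycle inhibitor p21 and a well-known target, was named after its values were seen: it rose by 3.01 ± 0.38, from 0.845 ± 0.770 to 8.20 ± 0.332 CPM. Sirt1 held a 6mer as its best site in a longest 3′ UTR of 1631 bases and had a log2 fold change of -0.34.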
